A study of Homo sapiens with 4 samples.

Results

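Intergenic peaks of RNA polymerase II (Pol II) that lie 5 to 50 kb from protein-coding genes are described here in U2OS, a human osteosarcoma cell line. A peak was a member when its summit lay in no annotated RefSeq gene, of any kind, and 5000 to 50000 bp from the nearest end of a protein-coding gene, on chromosomes 1 to 22 and X. By this rule 2128 of the 26387 peaks in the NKAP siRNA list and 2913 of the 36345 peaks in the control siRNA list were members, 5041 of 62732 in all. The study profiled Pol II by chromatin immunoprecipitation and sequencing (ChIP-seq) in U2OS cells given an siRNA against NKAP (labelled NKAP_KD) or a control siRNA (labelled NC). Both groups were transfected with Lipofectamine RNAiMAX for 48 h and fixed with 1% formaldehyde for 10 min. Each siRNA had 1 ChIP library and 1 input library, and what is used here is the peak list of each ChIP library. With 1 ChIP library per siRNA, no difference between the siRNAs had a replicate check, no test between them was made, and all intervals below are 95% intervals for counting error only. They treat peaks as independent, which neighbouring peaks are not.

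Pol II outside genes is known to mark several kinds of place. It is loaded at active enhancers, where it makes short unstable transcripts, at promoters of long noncoding RNA (lncRNA) and small nuclear RNA genes, and beyond the 3′ ends of genes, where it runs on before it is released. These kinds cannot be told apart in the peak lists, which hold no strand, no transcript and no chromatin mark. NKAP, the target of the siRNA, is a nuclear RNA-binding protein known for roles in splicing and in transcriptional repression with HDAC3 in the Notch pathway. The knockdown itself cannot be checked from these lists, because an siRNA acts on the transcript and the lists hold no transcript level.

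Where a member summit fell in the promoter window of an annotated gene, the sequence under it could be read. RefSeq windows (GRCh38.p14) run from 250 bases before to 50 bases after a gene's start, and 44 NKAP siRNA members (2.07%) and 56 control members (1.92%) had a summit in one. These summits fell in 82 windows, all of them windows of lncRNA genes (the distance rule keeps summits away from protein-coding starts), and 24 windows held a summit of each list. The 6 windows printed here were chosen after their values were seen, to show what Pol II sat on when it was found at the same start in both lists and when it was found in 1 list. The capitals mark the 21 bases centred on the summit (that of the NKAP siRNA list where both had one), and each sequence reads 5′ to 3′ on the strand of the lncRNA gene. The first 4 lay under peaks of both lists, the fifth under a peak of the NKAP siRNA list alone and the last under a peak of the control list alone.
LOC124903277: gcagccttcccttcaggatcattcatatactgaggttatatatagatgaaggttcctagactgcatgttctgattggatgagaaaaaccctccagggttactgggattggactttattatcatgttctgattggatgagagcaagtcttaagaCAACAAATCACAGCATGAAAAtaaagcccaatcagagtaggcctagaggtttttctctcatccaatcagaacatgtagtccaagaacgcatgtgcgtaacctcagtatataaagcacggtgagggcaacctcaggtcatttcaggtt
LOC101929566: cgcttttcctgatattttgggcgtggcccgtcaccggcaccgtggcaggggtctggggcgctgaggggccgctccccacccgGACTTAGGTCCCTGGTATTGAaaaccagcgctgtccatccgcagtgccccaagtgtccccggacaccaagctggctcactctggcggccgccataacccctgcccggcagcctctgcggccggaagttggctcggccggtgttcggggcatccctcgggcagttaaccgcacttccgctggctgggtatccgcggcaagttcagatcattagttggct
CARINH: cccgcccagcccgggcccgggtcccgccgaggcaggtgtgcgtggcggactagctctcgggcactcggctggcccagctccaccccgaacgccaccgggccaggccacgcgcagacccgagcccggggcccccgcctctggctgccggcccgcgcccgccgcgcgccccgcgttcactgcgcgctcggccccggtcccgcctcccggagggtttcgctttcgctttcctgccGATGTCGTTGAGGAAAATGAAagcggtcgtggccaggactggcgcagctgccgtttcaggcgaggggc
ENTPD1-AS1: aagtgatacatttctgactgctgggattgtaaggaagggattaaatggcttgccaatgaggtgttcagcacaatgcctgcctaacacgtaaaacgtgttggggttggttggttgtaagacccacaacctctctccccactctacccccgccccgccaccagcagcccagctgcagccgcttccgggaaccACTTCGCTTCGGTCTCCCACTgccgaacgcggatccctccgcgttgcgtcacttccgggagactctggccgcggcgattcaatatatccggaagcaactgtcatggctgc
ELDR: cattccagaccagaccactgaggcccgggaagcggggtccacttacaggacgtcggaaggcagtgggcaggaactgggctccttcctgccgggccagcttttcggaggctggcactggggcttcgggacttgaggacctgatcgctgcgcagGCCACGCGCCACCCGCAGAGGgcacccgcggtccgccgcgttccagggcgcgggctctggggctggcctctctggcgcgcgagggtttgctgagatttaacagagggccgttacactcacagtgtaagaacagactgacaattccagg
LOC105372255: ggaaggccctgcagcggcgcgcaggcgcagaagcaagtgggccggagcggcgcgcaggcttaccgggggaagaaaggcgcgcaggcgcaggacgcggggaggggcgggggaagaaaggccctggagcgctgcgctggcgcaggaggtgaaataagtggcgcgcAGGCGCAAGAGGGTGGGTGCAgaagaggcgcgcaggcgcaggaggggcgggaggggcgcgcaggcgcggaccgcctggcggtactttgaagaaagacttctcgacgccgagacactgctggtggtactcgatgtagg

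The window of LOC124903277 (chr14:19481827-19482126, minus strand), an unnamed lncRNA gene 47622 bp from the end of POTEG, had a peak of 21.2-fold enrichment and 76 summit reads in the NKAP siRNA list and of 29.4-fold and 127 reads in the control list. The fold is the authors' value, the summit pileup over the caller's local background, and the reads are those stacked at the summit, recovered from the fold and p-value of each peak. Which library served the caller as background is not given in the labels or files, so differences in fold that go with it cannot be traced further. Whether reads at this window, near POTEG, were split among similar copies was not tested, so its values are uncertain. This window was A/T-rich for the set, with 42.0% G and C, and held 5 CCAAT boxes on either strand. It also held the letters of a TATA box from base 261, after the annotated start. The window of LOC101929566 (chr16:2868155-2868454, minus strand), 10192 bp from PRSS22, had 20.1-fold and 40 reads in the NKAP siRNA list and 8.03-fold and 47 reads in the control list. CARINH (chr5:132410679-132410978, plus strand), a lncRNA gene 15309 bp from the carnitine transporter gene SLC22A5, had 16.7-fold and 36 reads in the NKAP siRNA list and 12.3-fold and 48 reads in the control list. ENTPD1-AS1 (chr10:96090186-96090485, minus strand), 29415 bp from CCNJ, had 15.6-fold and 31 reads in the NKAP siRNA list and 18.1-fold and 43 reads in the control list. At all 4 starts the control library held more reads before scaling for depth, and at 2 of them (LOC101929566 and CARINH) the fold was higher in the NKAP siRNA list. The start of ELDR (chr7:55255586-55255885, minus strand), a lncRNA gene 44095 bp from the epidermal growth factor receptor gene EGFR, had a weak peak of 6.33-fold and 15 reads in the NKAP siRNA list and no peak in the control list. The start of LOC105372255 (chr19:6199475-6199774, minus strand), 6510 bp from ACSBG2, had no peak in the NKAP siRNA list and a peak of 12.1-fold and 25 reads in the control list.

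The windows under member summits were rich in G, C and CpG. Their median G and C content was 64.0%, against 50% in all 12806 lncRNA windows and 58.7% in all 34789 windows, and their median number of CpG was 23, against 5 and 14. A GC box (GGGCGG, either strand) was found in 53.7% of them, in 25.6% of lncRNA windows and in 44.9% of all windows. An AP-1 motif (TGANTCA, either strand) was found in 15 of them (18.3%), in 10.3% of lncRNA windows and in 7.69% of all windows, and a TATA box (TATAAA, either strand) in 6.10%, 15.1% and 11.6%. The CCAAT box (CCAAT, either strand) was about as frequent in the 3 sets, at 34.1%, 34.5% and 34.6%. These shares describe letters in the windows and say nothing of which factor was bound.

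Intergenic members took shares of the lists that did not differ beyond counting error. They made up 8.06% (7.74 to 8.40) of the NKAP siRNA list and 8.01% (7.74 to 8.30) of the control list, and the difference was 0.0497 percentage points with an interval of -0.380 to 0.483. The NKAP siRNA list was shorter as a whole, so it held fewer members, and they were narrower. The mean width was 765 bp in the NKAP siRNA list and 926 bp in the control list. The members covered 1.63 Mb and 2.70 Mb, a ratio of 0.603. All peaks of the lists had mean widths of 906 bp and 1063 bp and covered 23.9 Mb and 38.6 Mb. Narrower peaks and less covered length were thus traits of the whole NKAP siRNA list, not of the members alone. The estimated depth of the NKAP siRNA ChIP library was 0.857 times that of the control ChIP library, and its peaks were called at 0.793 times the control depth. With the control peaks scaled down to the depth of the NKAP siRNA library, 34345 control peaks stayed and the ratio of covered length was 0.617. This scaling could drop weak control peaks but kept the listed widths of the others. The part of depth in the ratio was therefore not tested.

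Most members were modest peaks. The median fold was 6.86 in the NKAP siRNA list and 6.35 in the control list, and the median summit held 18 and 17 reads. The authors' threshold ended the lists at −log10 q of 3.02 (NKAP siRNA) and 3.01 (control), and weaker sites are not in them. Gene-end peaks, whose summits lie within 1000 bp of an end of a protein-coding gene, were stronger, with median folds of 9.84 and 10.98 and median summits of 26 and 30 reads. Just inside the lower bound, at 5 to 6 kb, 120 NKAP siRNA members had a median fold of 6.91 and 200 control members one of 5.87. Just outside it, at 4 to 5 kb, the medians were 6.52 for 168 peaks and 5.82 for 274 peaks, and at the upper bound they were 7.09 and 6.28 inside, and 6.67 and 6.07 outside.

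Members found in the NKAP siRNA list were mostly present in the control list, whereas control members were about evenly divided between those with and without a counterpart. A control peak overlapped 75.8% (73.9 to 77.6) of NKAP siRNA members by at least 1 bp, against 82.8% of all peaks in that list. An NKAP siRNA peak overlapped 50.5% (48.7 to 52.3) of control members, against 54.2% of all control peaks. No counterpart was found for 515 NKAP siRNA members (24.2%, against 17.2% of all peaks of that list) and for 1441 control members (49.5%, against 45.8%). Members with no counterpart were weaker and narrower, with median folds of 5.92 (NKAP siRNA list) and 5.60 (control list) and median widths of 337 bp and 398 bp. With the control list shortened to the 26387 strongest peaks, the overlapped shares became 68.2% for NKAP siRNA members and 61.3% for control members. The shares over all peaks at that cut are not given here, so these shares describe the members only.

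**Figure D1:**
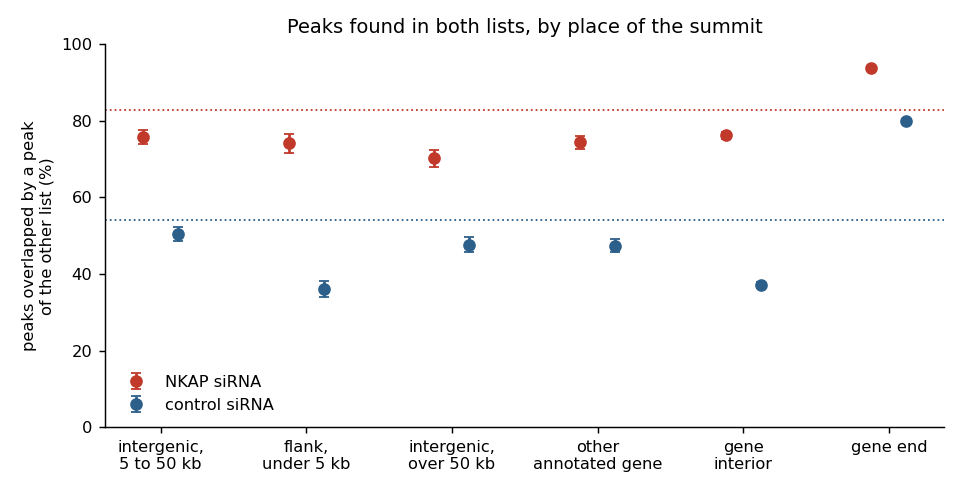
Share of peaks overlapped by a peak of the other list (vertical axis, %) for 6 places of the summit; points are shares, bars are 95% Wilson intervals, and dotted lines are the shares over all peaks of each list. Intergenic peaks 5 to 50 kb from genes stood at 75.8% in the NKAP siRNA list and 50.5% in the control list, below gene ends (93.8% and 79.8%) in both.

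Compared at like strength, intergenic members were found again slightly less often than peaks inside genes in the NKAP siRNA list and more often in the control list. Peaks were divided into 10 groups by −log10 p within their list, and the other class was weighted to the members' spread over these groups. In the NKAP siRNA list the overlapped share of members then differed from that of gene interiors by -2.71 percentage points (-4.60 to -0.826) and was higher in 2 of 10 groups. In the control list it was 6.21 points (4.56 to 7.86) above that of gene interiors and higher in 10 of 10 groups. The difference from gene interiors thus had opposite signs in the lists, and of the gene-interior peaks themselves 23.8% of 7842 in the NKAP siRNA list and 62.8% of 13320 in the control list had no counterpart.

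Against gene ends the members were lower in both lists. The difference was -12.2 points (-14.1 to -10.3) in the NKAP siRNA list and -9.06 points (-10.9 to -7.26) in the control list, and the members were higher in 0 of 10 groups of either. Against intergenic peaks more than 50 kb from genes, the members' share was 4.14 points higher (1.55 to 6.73) in the NKAP siRNA list. The same difference in the control list was 2.099 points, with an interval that included 0 (-0.162 to 4.36). Flank peaks, 1 to 5 kb outside genes, stood 3.01 points above the members in the NKAP siRNA list (member difference -3.01, interval -5.64 to -0.376) and below them in the control list (member difference 3.24, interval 0.967 to 5.52).

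**Figure D2:**
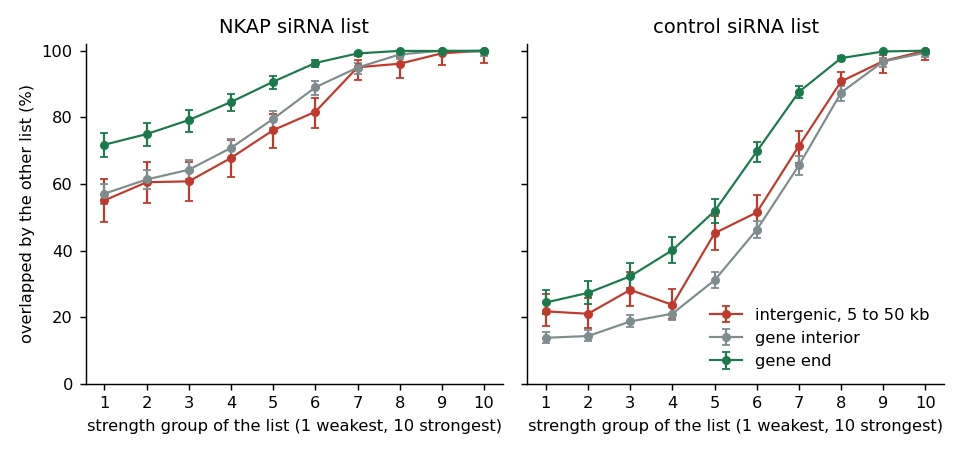
Share of peaks overlapped by the other list (vertical axis, %) in 10 groups of rising −log10 p (horizontal axis), for the NKAP siRNA list on the left and the control list on the right; bars are 95% Wilson intervals. The weakest intergenic members were overlapped at 55.1% in the NKAP siRNA list and 21.7% in the control list, and the strongest at 100% in both.

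The overlapped share of members showed no steady trend with distance from the gene. From 5 to 10 kb out to 40 to 50 kb, it lay between 72.9% and 77.1% in the NKAP siRNA list and between 45.3% and 55.8% in the control list, and the nearest and farthest bins differed by 2.71 points (-3.86 to 9.83) and -2.26 points (-8.84 to 4.29). There were 542, 623, 442, 310 and 211 NKAP siRNA members and 811, 865, 554, 382 and 301 control members in the bins that start at 5000, 10000, 20000, 30000 and 40000 bp. The first bin is 5000 bp wide and the others 10000 bp, and the counts were not set against the length of genome at each distance. The strand of 15812 of 19974 protein-coding genes (79.2%) was known from their promoter windows, which placed 864 NKAP siRNA and 1178 control members upstream of the nearest gene and 781 and 1117 downstream. The overlapped share of upstream members differed from that of downstream members by 2.26 points in the NKAP siRNA list, with an interval of -1.84 to 6.37. In the control list it differed by 4.89 points (0.795 to 8.96). At like strength the differences were 2.16 points (-1.71 to 6.03) and 3.02 points (-0.439 to 6.48), both with intervals that included 0.

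Members with another annotated gene close by were stronger and were overlapped more often, and at like strength the excess of overlap held in the control list. A gene other than a protein-coding one lay within 1000 bp of the summit for 274 NKAP siRNA members (12.9%) and 312 control members (10.7%). These were overlapped at 82.8% and 69.6%, which was 8.09 points (2.82 to 12.6) and 21.3 points (15.6 to 26.5) more than the members farther away. Members with such a neighbour were also stronger, with median folds of 7.83 (NKAP siRNA list) and 7.34 (control list), against 6.79 and 6.31 for those farther away. At like strength the difference was 2.76 points in the NKAP siRNA list, with an interval that included 0 (-1.41 to 6.92), and 9.28 points in the control list (4.83 to 13.7). Most of these neighbours were lncRNA genes (149 and 183 members) and pseudogenes (57 and 58), followed by tRNA genes (34 and 29), small nuclear RNA genes (15 and 18), 5S rRNA genes (15 and 15) and small nucleolar RNA genes (3 and 3). MicroRNA genes were the nearest neighbour of 0 NKAP siRNA members and of 5 control members, of which 1 was overlapped by an NKAP siRNA peak. These are counts of the nearest annotated gene and do not show that the Pol II signal came from it.

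Several of the tallest intergenic regions shared by the lists stood beside genes of spliceosomal and nucleolar RNAs. U1, U2 and U5 small nuclear RNAs and the U3 small nucleolar RNA are known Pol II products with promoters of their own, while 5S rRNA, tRNA and U6 RNA are products of RNA polymerase III. Beside SNORD3D, a U3 gene 93 bp from the control summit and 15262 bp from GRAPL, the peak had 59.5-fold and 173 reads in the NKAP siRNA list and 53.2-fold and 264 reads in the control list. Beside SNORD3B-2, another U3 gene, near GRAP, it had 22.9-fold and 197 reads in the NKAP siRNA list and 81.9-fold and 244 reads in the control list. The reads of the second pair were close once scaled to the control depth (ratio 0.942), while the caller's local background was 7.0 reads in the NKAP siRNA list and 1.99 in the control list. The U3 genes are near-identical copies, so reads could be split among them by the aligner, and their values are uncertain.

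At RNU5B-1, a U5 gene 17783 bp from PARP16, the peak had 34.3-fold and 110 reads in the NKAP siRNA list and 40.05-fold and 134 reads in the control list. At RNU5E-1, another U5 gene, near KIAA2013, the NKAP siRNA peak had 34.2-fold and 79 reads and the control peak 40.8-fold and 121 reads, but the summits lay 1664 bp apart and that of the NKAP siRNA peak was not a member. The regions at U1 genes and beside CCDC200 were chosen after their values were seen. At RNU1-3 the peak had 25.9-fold and 52 reads in the NKAP siRNA list and 39.2-fold and 83 reads in the control list, and at RNU1-1 19.0-fold and 38 reads and 25.2-fold and 53 reads. A row of annotated small nuclear RNA genes beside CCDC200 on chromosome 17 held 9 NKAP siRNA members and 13 control members, with folds of up to 29.6 and 37.6. The copies of U1 are near-identical too, and reads in the row beside CCDC200 could likewise be split among its genes, so these values are uncertain. Over the 16 shared regions with a small nuclear RNA gene within 1000 bp, the median depth-scaled read ratio of NKAP siRNA over control was 0.938 (quartiles 0.838 and 1.01).

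Among the members beside Pol III genes, the 5S array on chromosome 1 (chr1:228608515-228639670) had the most covered length of all runs of members. A run joins neighbouring members across gaps no longer than the default of the ROSE program for stitching enhancers. The members next to a 5S gene lay 5110 to 34170 bp from the end of RHOU. The 5S run held 16 members in each list, which covered 20069 bp in the NKAP siRNA list and 23533 bp in the control list, with folds of at most 9.03 and 9.63. The array is a row of repeated 5S genes, so reads could be split among the copies by the aligner. Its peaks and covered length are therefore uncertain. The regions at tRNA genes were chosen after their values were seen. Of these, TRI-TAT2-1, an isoleucine tRNA gene near HAAO, had 30.0-fold and 81 reads in the NKAP siRNA list and 27.3-fold and 101 reads in the control list. In a tRNA cluster near FCGR2A, the region at TRE-CTC1-5 had 110 reads in the NKAP siRNA list and 73 in the control list, a scaled ratio of 1.76, on raised backgrounds of 13.0 and 17.9 reads. Reads of repeated tRNA genes could be split among copies too, so this ratio is uncertain. Over all 17 shared regions with a tRNA gene within 1000 bp the median ratio was 1.07 (quartiles 0.936 and 1.32).

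Other tall regions had no small RNA gene within 1000 bp. The highest fold in the NKAP siRNA list lay 32171 bp upstream of NID1, which encodes the basement membrane protein nidogen (chr1:236096757-236097671). It had 97.2-fold in the NKAP siRNA list and 33.1-fold in the control list, while the summits held 209 and 197 reads and the local backgrounds 1.00 and 4.98 reads. The gap in fold therefore went with the caller's background, and the scaled read ratio was 1.24. A region 28220 bp from NTM, a neuronal cell adhesion gene, had 37.99-fold and 81 reads in the NKAP siRNA list and 42.0-fold and 89 reads in the control list. One 10401 bp upstream of ELOVL5, a fatty acid elongase gene, had 21.6-fold and 69 reads in the NKAP siRNA list and 42.3-fold and 106 reads in the control list, a scaled ratio of 0.760. Near FLYWCH2 the values were 44.4-fold and 90 reads in the NKAP siRNA list and 24.8-fold and 98 reads in the control list, and near NPTX1, a neuronal pentraxin gene, 34.2-fold and 99 reads and 31.1-fold and 123 reads. Near TPSD1, a mast cell tryptase gene, they were 37.4-fold and 82 reads in the NKAP siRNA list and 31.8-fold and 94 reads in the control list, and near POTEM 23.96-fold and 206 reads and 52.7-fold and 244 reads. After scaling for depth, the read ratio of NKAP siRNA over control was above 1 near FLYWCH2 (1.07), NTM (1.06) and TPSD1 (1.02) and below 1 near NPTX1 (0.939) and POTEM (0.985). Near POTEM the local background was 7.0 reads in the NKAP siRNA list and 3.65 in the control list. Whether reads near POTEM were split among similar copies was not tested, so these values are uncertain.

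After merging, the members of both lists made 3448 regions. Of these, 1492 (43.3%) had a peak in both lists, against 47% of the 39941 regions made from all peaks in the same way. A further 515 (14.9%) were in the NKAP siRNA list only, against 11.3% of all regions, and 1441 (41.8%) in the control list only, against 41.7%. A peak of the other list stood within 5000 bp of 204 (39.6%) of the regions found with NKAP siRNA only and of 535 (37.1%) of those found with control siRNA only. With the control list shortened to the strongest 26387 peaks, 676 regions were in the NKAP siRNA list only and 814 in the control list only. Matching shares over all regions are not given for the neighbour counts or the shortened list, so these values describe the members only.

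Where both lists had a summit at the same place, the intergenic reads were close to equal. The summits of the shared regions lay a median of 142 bp apart, and 1031 (69.1%) were within 250 bp. Over these 1031 regions, the reads scaled for depth had a median NKAP siRNA over control ratio of 0.993 (quartiles 0.802 and 1.24). The same ratio had a median of 0.934 over all 14233 such regions and of 0.908 at gene ends. In the other classes it was nearer to that of the members. The median was 0.991 in flanks and 1.02 in intergenic regions over 50 kb from genes. In gene interiors it was 0.972, and in annotated genes that are not protein-coding 0.959. Reads were at least 1.5-fold lower with NKAP siRNA in 100 intergenic regions (9.70%) and at least 1.5-fold higher in 90 (8.73%), against 9.23% and 5.46% of all regions. The share at least 1.5-fold higher was 8.82% in flanks and 9.60% in intergenic regions over 50 kb from genes. It was 8.04% in gene interiors and 8.46% in annotated genes that are not protein-coding. Only regions called in both lists could enter this comparison. Among the 362 regions whose average was 30 or more reads, the median was 0.923, against 0.891 for 7330 regions of all kinds.

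**Figure D3:**
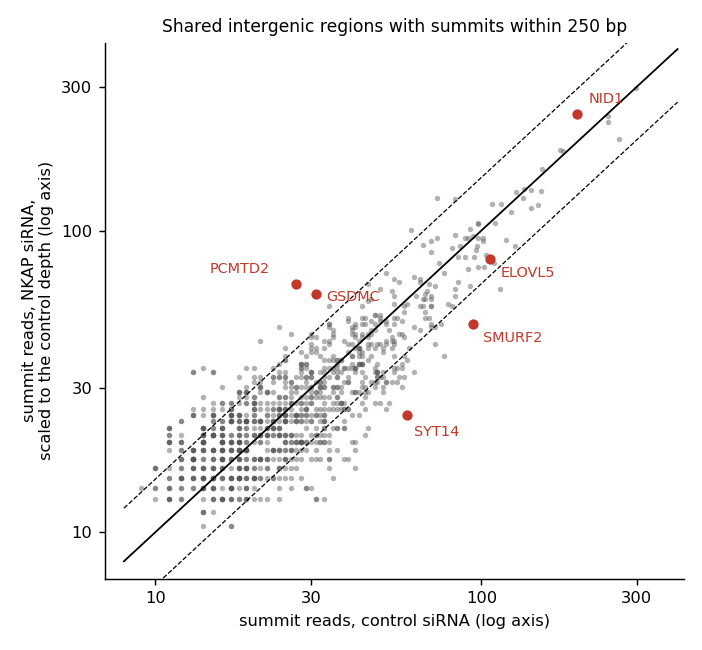
Reads at the summit of the 1031 intergenic regions shared by the lists with summits within 250 bp: NKAP siRNA reads scaled to the control depth (vertical, log axis) against control reads (horizontal, log axis). Each point is 1 region, the solid line is equality, the dashed lines mark 1.5-fold, and the named regions are in red; the cloud lay around the line of equality with a median ratio of 0.993.

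Single regions stood away from equality in both directions; they were ranked by the ratio after the values were seen, among regions with an average of 30 or more reads at the control depth. The lowest ratio, 0.415, lay 16759 bp downstream of SYT14, a synaptotagmin gene, with 21 reads in the NKAP siRNA list and 59 in the control list. A region 17904 bp upstream of SMURF2, the gene of a ubiquitin ligase that acts on TGF-beta signalling, had 42 reads in the NKAP siRNA list and 94 in the control list (ratio 0.521). The highest ratio, 2.46, lay 9798 bp from PCMTD2, with 57 reads in the NKAP siRNA list and 27 in the control list. Next came a region 10149 bp from TOM1, with 37 reads in the NKAP siRNA list and 21 in the control list (ratio 2.06). Regions 19635 bp from GSDMC and 11447 bp from TUBB6, a beta-tubulin gene, followed with 53 and 41 reads in the NKAP siRNA list and 31 and 24 in the control list, so that reads were higher with NKAP siRNA at each of these 4. A region 42811 bp upstream of TGFA, the gene of an epidermal growth factor receptor ligand, had 33 reads in the NKAP siRNA list and 25 in the control list (ratio 1.54).

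Regions of 1 list that lay far from any peak of the other were mostly weak in both lists, with median folds of 6.05 in the NKAP siRNA list and 5.68 in the control list. With no control peak within 5000 bp there were 311 in the NKAP siRNA list only, of which 10 reached a fold of 10, and their highest fold was 12.2. With no NKAP siRNA peak within 5000 bp there were 906 in the control list only, of which 30 reached a fold of 10, and their highest fold was 19.6. Matching counts over all peaks of the lists are not given here, so these counts describe the members only. The highest in the NKAP siRNA list lay 15741 bp from PCNX1 (12.2-fold, 31 reads), followed by one 5428 bp downstream of MAG, the myelin-associated glycoprotein gene (12.2-fold, 28 reads). A region 35816 bp downstream of NFKBIA, whose product holds NF-kB in the cytoplasm, had 11.6-fold and 24 reads, and the nearest control peak was 28044 bp away. CWH43, RFX8, MTFR2 and TCF3 were nearest to 4 more of the 8 highest, with folds between 10.2 and 11.1. A list without a peak can still hold Pol II below the authors' threshold.

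In the control list, the highest such region lay 37774 bp downstream of PAWR, a pro-apoptotic gene, with 19.6-fold, 41 reads and a width of 3090 bp, and the nearest NKAP siRNA peak was 140788 bp away. A pair of the 8 highest lay beyond TGFB2, the gene of a TGF-beta ligand, at 35576 and 42567 bp downstream (18.7-fold and 39 reads, 13.5-fold and 28 reads). A region 13432 bp from CTAG1A, a cancer-testis antigen gene on chromosome X, had 18.7-fold, 39 reads and a width of 5390 bp; CTAG1A has a near-identical copy nearby, so its reads are uncertain. The others were nearest to PLEKHO1 (16.3-fold), DACT1, an antagonist of Wnt signalling (13.9-fold), ZRANB1 (13.4-fold) and PDGFC, a platelet-derived growth factor gene (13.3-fold).

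Members gathered in runs. The 2128 NKAP siRNA members fell in 1460 runs and the 2913 control members in 1895, and 48.3% and 54.3% of members shared a run with another of their list. Beside the 5S array, the runs with the most covered length lay upstream of SMURF2 (10868 bp in the NKAP siRNA list, 14617 bp in the control list), near RPE65, a visual cycle gene (11728 and 12916 bp), around LIF, OSM and HORMAD2, of which the first 2 are cytokine genes of the interleukin-6 family (6250 and 18218 bp), and near LOC124905938 on chromosome 2 (13880 and 9737 bp). Whether reads near LOC124905938 were split among similar copies was not tested. Members alone can miss a wide peak whose summit lies in a gene, so the bases of each run under any peak were counted as well.

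By that count the runs that differed most, which were ranked after their values were seen, went both ways. The run at LIF, OSM and HORMAD2 had 13472 bp under NKAP siRNA peaks and 29357 bp under control peaks. The run beyond TGFB2 had 0 bp in the NKAP siRNA list and 7384 bp in 5 control members. Near RASSF10 and TEAD1, the gene of a DNA-binding partner of YAP, 6705 bp lay under NKAP siRNA peaks and 14971 bp under control peaks. Counted over members alone, that run had 4948 bp in the NKAP siRNA list and 4591 bp in the control list. Its net deficit thus lay in peaks that are not members. The members nearest to TEAD1, apart from those nearest to RASSF10, covered 873 bp in the NKAP siRNA list and 4133 bp in the control list. The run near AMOTL2, a YAP target and inhibitor, had 2407 bp under NKAP siRNA peaks and 9117 bp under control peaks.

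In the other direction, the run beyond PCNX1 had 11481 bp in 7 NKAP siRNA members and 5127 bp in 3 control members, with nearly equal highest folds of 14.8 and 15.0. The run near HAPSTR1, a stress response gene, had 12245 bp in 12 NKAP siRNA members and 6493 bp in 5 control members. The run downstream of DUSP5, the gene of a phosphatase that inactivates ERK in the nucleus, had 7807 bp in 4 NKAP siRNA members and 2890 bp in 2 control members, with highest folds of 22.9 and 19.4. Near HMOX1, the haem oxygenase gene, and TOM1 there were 4423 bp in the NKAP siRNA list and 2095 bp in the control list. Over all members the covered length had a ratio of 0.603, and each of these 4 runs went the other way.

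**Figure D4:**
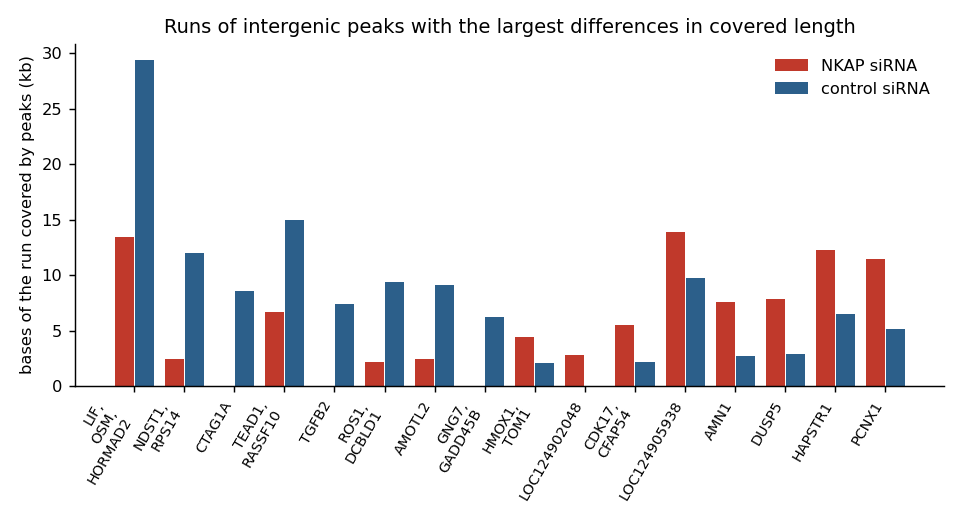
Bases covered by peaks (vertical axis, kb) in 8 of the runs with the largest deficit and the 8 with the largest excess with NKAP siRNA, each with NKAP siRNA (left bar) and control siRNA (right bar); names are those of the nearest protein-coding genes. The run beyond TGFB2 had 0 bp with NKAP siRNA, and that beyond PCNX1 had 11481 bp with NKAP siRNA and 5127 bp with control siRNA.

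**Figure D5:**
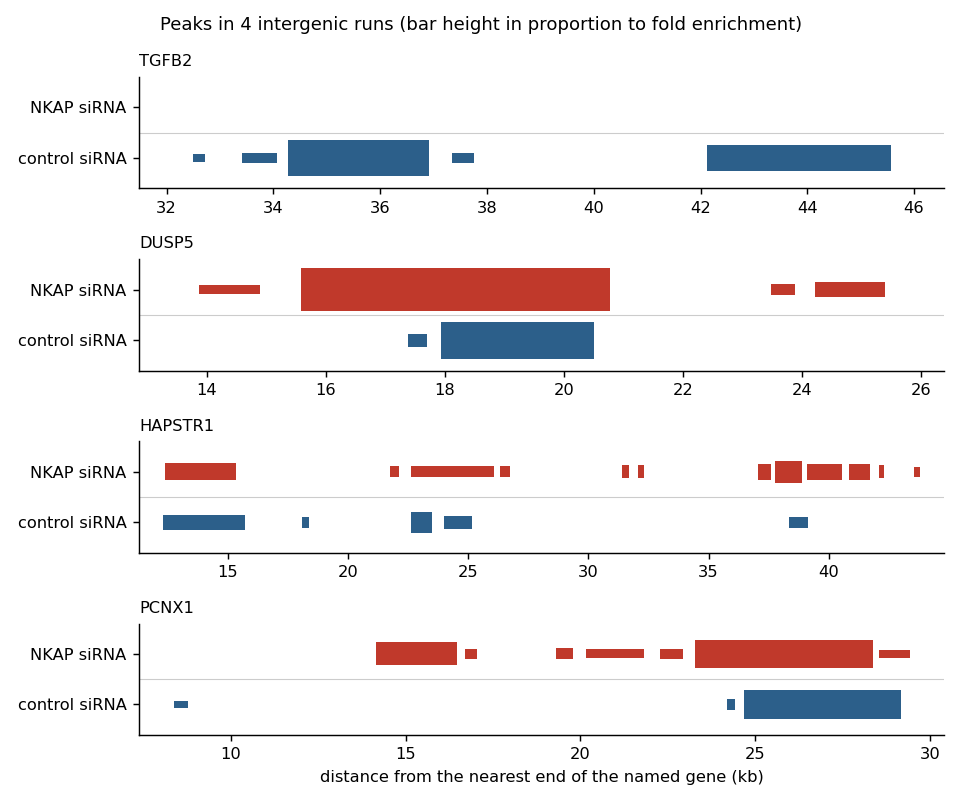
Peaks of both lists along 4 runs (horizontal axis, distance in kb from the nearest end of the named gene), NKAP siRNA above and control siRNA below; each bar is 1 peak, its length is drawn to scale and its height is in proportion to its fold enrichment. Near HAPSTR1 the NKAP siRNA list had 12 peaks and the control list 5, and at TGFB2 the NKAP siRNA list had 0 and the control list 5.

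The nearest protein-coding gene of a member usually had a gene-end peak, though such a peak can also belong to a neighbouring gene. A gene-end peak of the same list stood at the nearest gene of 64.8% (62.7 to 66.8) of NKAP siRNA members and 67.7% (66.0 to 69.4) of control members, against 56.5% and 59.9% of all protein-coding genes. The first 2 shares count members and the last 2 count genes, so they are not in like units. Genes with many members weigh more in the first 2, and 36 and 68 genes had 5 or more. Between members whose nearest gene carried one and those whose nearest gene did not, the overlapped share differed by 2.01 points (-1.77 to 5.90) in the NKAP siRNA list and by -0.157 points (-4.03 to 3.72) in the control list. In all, 1403 genes (7.02%) were the nearest of an NKAP siRNA member and 1806 (9.04%) of a control member. Being nearest does not show that a region acts on that gene.

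Gene groups are described by counts of genes nearest to a member, to be read against these shares, and by counts of members, to be read against 2128 and 2913 in all. The lists were completed with the members' nearest genes known, so a count above the share of all genes is no evidence of enrichment. Among 26 early response and AP-1 genes, which cells switch on within minutes of a stimulus, 11 were the nearest gene of an NKAP siRNA member and 10 of a control member. IER5 had 8 and 10 members, with 5447 and 10859 bp covered, BHLHE40 had 7 and 5, with 8695 and 7256 bp, and IER2 had 5 and 5, with 3191 and 9123 bp. Of 16 ERK feedback genes 4 had a member in each list, led by DUSP1 (3 and 4 members), ETV4 (3 and 4) and DUSP5 (4 and 2).

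YAP/TAZ and TGF-beta target genes had more members beside them in the control list than in the NKAP siRNA list. Of 20 YAP/TAZ targets, 7 were nearest to an NKAP siRNA member and 9 to a control member, with 11 and 24 members in all, and TEAD1 had 2 and 7 members, TGFB2 0 and 6, and AMOTL2 1 and 4. Of 20 TGF-beta targets, 7 and 10 had members, 16 and 33 in all, and SMURF2 had 3 and 7 and TGFBI, a matrix protein gene, 3 and 7. Of 25 matrix and adhesion genes, 8 and 9 had members, 21 and 33 in all, led by COL6A3, a collagen VI gene (5 and 8), and ELN, the elastin gene (3 and 6). TGFB2 stands in both of the first 2 lists. Its gene end carried a peak in each list.

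Notch and NF-kB genes bear on the known roles of NKAP. Of 22 Notch pathway genes and targets, 6 were nearest to an NKAP siRNA member and 5 to a control member, with 12 and 9 members, and TLE1, a corepressor gene, had 6 and 2 members, which covered 2155 and 4854 bp, so that the NKAP siRNA list had more but narrower peaks there. The receptor gene NOTCH1 had 2 and 4. Of 20 NF-kB targets 5 and 6 had members, 10 and 13 in all, led by CSF2, a colony-stimulating factor gene (5 and 4), and LIF (2 and 5). Interferon-stimulated genes had members at 3 and 2 of 24, actin and contractility genes at 4 and 6 of 21, and p53 targets at 1 and 1 of 20 (CDKN1A, with 1 and 2 members).

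Nearly all genes of the housekeeping groups carried gene-end peaks. Of 28 nuclear respiratory chain genes, 0 were nearest to a member in either list and 27 had a gene-end peak in each. Of 26 core spliceosome genes 2 had members in each list (CDC5L with 2 and 6, SNRPE with 1 and 1), of 30 cytosolic ribosomal protein genes 4 in each (RPL3 with 1 and 5), and of 33 Pol II subunit and elongation factor genes 3 and 2. Gene spacing differs between groups, and its part in these counts was not tested.

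Markers of other cell types were counted in the same way, and these counts too are to be read against 7.02% and 9.04% of all genes. Hepatocyte markers had no member (0 of 15 in each list), lymphocyte markers 0 and 2 of 14, neuron markers 1 and 2 of 14, and keratinocyte and epithelium markers 2 and 2 of 14, led by PKP1 (3 and 4 members). Of 12 osteoblast lineage markers, SPARC had 3 and 3 members, COL1A1 2 and 3 and MSX2 0 and 2. Gene-end peaks stood at 5 of these 12 in each list (BGLAP, SP7, COL1A1, SPARC and MSX2), and none was called at RUNX2, ALPL, SPP1, IBSP, TWIST1, COL1A2 or DLX5. The label of an osteosarcoma line thus had Pol II at some of its lineage genes and no called peak at the ends of others, RUNX2 among them. Gene-end peaks also stood at 6 and 7 of the 14 neuron markers and at 2 and 4 of the 14 lymphocyte markers. They stood at 2 and 2 of the 14 keratinocyte and epithelium markers and at 1 and 1 of the 15 hepatocyte markers. Over all protein-coding genes the shares were 56.5% and 59.9%. By this count the osteoblast markers did not stand out from the neuron markers.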

How the data were processed

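Pol II ChIP-seq peak lists of 2 libraries were analysed, 1 per siRNA, and the input libraries were not analysed here. Per the submitters' processing notes, bcl2fastq 2.17, Trimmomatic 0.33, Bowtie 1.1.2 and MACS2 2.1.0 were used with build hg38; their settings were not found in the labels or files. The deposited columns hold the peak position, a score, the fold enrichment of the summit (a ratio), the −log10 p-value and the −log10 q-value, all as the authors made them, per library. Peaks were called per sample, as each deposited list covers 1 library.

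From fold and p, whole summit reads and the local background came out for 100% of peaks, within 0.001 of −log10 p. Depth came from the lowest background and the smallest peak width. Genes came from the RefSeq table of GRCh38.p14, the same assembly as hg38; no genome sequence was used. Shares carry 95% Wilson intervals and differences Newcombe intervals. Named regions followed a rule: the 8 shared regions of highest fold in each list, the 8 highest of each list alone with no peak of the other within 5000 bp, the 5 runs of most covered length and the genes of each list with most members; regions and runs outside it are said to be chosen after their values were seen. The members, the 19 gene lists (400 entries) and the rules were chosen with earlier results of these data known. Placing, read recovery and matching were tested on simulated data. Python 3.11.15, numpy 2.4.6, pandas 2.3.3, scipy 1.17.1 and matplotlib 3.10.9 were used. Some regions that the rule names are not reported here.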

Additional observations from a re-analysis of the deposited data

How the results depend on the processing

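No paired analysis was possible because each siRNA had 1 ChIP library and no test was made. Under the alternatives tried, 53 values stayed within their counting error or within 1.5 times the reported count and 14 moved. Some of the 53 could not move, such as the NKAP siRNA member share where only the control list was changed. The allowance for counts is wide, and a change from 515 to 676 regions counted as staying. With the lists cut to equal numbers of strongest peaks, 68.2% of NKAP siRNA members and 61.3% of control members were overlapped, and 676 regions were in the NKAP siRNA list only and 814 in the control list only. With an overlap of 50% of the shorter peak, the shares were 70.9% and 47.1%. A lower bound of 10000 bp gave member shares of 6.01% and 5.78%, by its construction, and an overlapped share of 52.6% for control members. With control reads scaled to the depth at which the NKAP siRNA peaks were called (chosen after seeing the data), the overlapped shares were 73.9% and 52.6%. With strength measured by fold, the control members stood 8.08 points above gene interiors. Leaving out members with another annotated gene within 1000 bp (chosen after seeing the data) gave member shares of 7.03% and 7.16% and an overlapped share of 48.3% for control members. The cause of these changes was not tested unless stated. Overlapped shares over all peaks under these alternatives are not given here. The covered-length ratio lay between 0.584 and 0.686, and the median read ratio, a result added after the files were seen, between 0.961 and 1.00. Depth limits the weak members: the median summit held 18 and 17 reads, and regions below the authors' threshold could not be seen.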

Other observations

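The density of members varied between chromosomes. Over the 359 Mb that the distance rule allows, there were 5.92 members per Mb in the NKAP siRNA list and 8.10 in the control list. Chromosome 22 had the most, with 17.3 and 23.7 per Mb, followed by chromosome 17 with 12.5 and 15.9 and chromosome 19 with 11.8 and 13.5. Chromosome X had the fewest, with 1.27 and 1.84 per Mb. The overlapped share was highest for control members on chromosome 17, at 64.0% (56.8 to 70.7).

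A small set of members stood on a raised local background of 5 or more reads, 64 in the NKAP siRNA list (3.01%) and 58 in the control list (1.99%). Over all peaks the counts were 404 (1.53%) in the NKAP siRNA list and 344 (0.946%) in the control list. The median folds of these members were low, at 4.48 and 4.16, with medians of 56 and 41 reads. All peaks on such a background had median folds of 4.48 and 4.16 too. Genes often nearest to these members were LOC124905368 on chromosome 2 (14 and 10 members) and FCGR2A with its tRNA cluster (5 and 3). CCDC200 with its small nuclear RNA genes had 5 and 4, and RHOU beside the 5S array 4 and 4. A further 8 NKAP siRNA members of this kind lay near LOC124902048.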
